A study of Mus musculus with 2 samples.

Results

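Ribosomal protein genes encode the protein part of the cytosolic ribosome, and their mRNAs are among the most abundant of a growing cell. Their levels were followed in limb muscle tissue of mouse embryos at 2 ages. The genes were taken by symbol: every gene in the deposited matrices named Rpl or Rps with a number, together with Rplp0, Rplp1, Rplp2 and Rpsa, if it had at least 100 UMIs over both libraries. A UMI (unique molecular identifier) marks 1 captured RNA molecule. The rule gave 76 of the 32285 genes listed, 46 of the large and 30 of the small ribosomal subunit, and all 76 matching symbols passed the minimum. The family was picked for description with earlier results of these data known, while the members follow from their symbols and that minimum.

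The E12.5 library and the E15.5 library hold cells of limb skeletal muscles from C57Bl/6 embryos of wild-type (WT) genotype, and E stands for embryonic day. Both forelimbs and hindlimbs were used, cells were freed mechanically and with trypsin, and no sort is named in the labels. There was 1 library per age, and the number and sex of the embryos behind each are not given in the sources used here. No difference between the ages therefore has a replicate check or a test, and the 95% intervals given in brackets cover counting error only.

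The ribosome joins a small subunit, which reads the mRNA, and a large subunit, which forms the peptide bond and holds the tunnel through which the new protein leaves. Most ribosomal proteins are present in equal amounts in the particle, and most of their mRNAs begin with a run of pyrimidines, the terminal oligopyrimidine (TOP) motif, through which mTOR signalling controls their translation as a group. In embryonic muscle, dividing progenitors and the myoblasts and fibres they form all make protein at a high rate.

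The libraries differed in depth. The deposited matrices held 12941 barcodes and 34907675 UMIs at E12.5 and 5780 barcodes and 46966083 UMIs at E15.5, and 17 barcode sequences occurred in both. After filtering, 11001 and 3916 cells were left, with a median of 2320 and 9311.5 UMIs per cell, so that library, age and depth cannot be told apart. Comparing cells within a range of depth narrows the difference in depth and leaves library and age confounded. In the kept cells the mitochondrial share of UMIs was 3.12% at E12.5 against 3.70% at E15.5, and the haemoglobin share was 0.262% and 0.265%. Cell classes were rebuilt by clustering each library without the ribosomal protein genes and are called "-like" after their marker genes. Muscle lineage-like cells were 605 and 398 of the kept cells and connective tissue-like cells 8162 and 1615, so that most cells of the tissue labelled skeletal muscle were not of the muscle lineage.

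The start regions of these genes show what they have in common in sequence. RefSeq promoter entries of build GRCm38.p6 were found for 56 of the 76 genes. Within 50 bases on either side of the annotated start, 46 of the 56 genes (82.1%) held an unbroken run of at least 8 letters that were each C or T on the gene's strand, against 9650 of 27025 genes with an entry (35.7%). The median of the longest run was 10.5 letters for the ribosomal protein genes and 7 letters for all genes. The windows of Rpl4, Rpl35 and Rpl5, which had the smallest ratios between ages over all kept cells, and of Rps2 and Rpl9, among those with the largest, are printed as examples from both ends of the family's range. Rplp1, the second highest, had no promoter entry, and in Rplp0, also among the highest, the longest run was 7 letters. Capitals mark the longest C or T run within the 50 bases searched on either side of the start. Each window is 30 bases of the GRCm38.p6 reference on the strand named.
Rpl4, chr9:64173406-64173435, plus strand: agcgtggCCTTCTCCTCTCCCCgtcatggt
Rpl35, chr2:39005115-39005144, minus strand: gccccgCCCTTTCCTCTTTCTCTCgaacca
Rpl5, chr5:107900498-107900527, plus strand: cctacagccaCTCTTTCTCacgtcgcttgc
Rps2, chr17:24720083-24720112, plus strand: aaattgtcccttccgcggcgCCTCCCTCTT
Rpl9, chr5:65391383-65391412, minus strand: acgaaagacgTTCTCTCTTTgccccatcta
A run of these letters is a description of the reference sequence and does not show where transcription began in these cells. The runs were 15 letters long in Rpl4, 18 in Rpl35, 9 in Rpl5, 10 in Rps2 and 10 in Rpl9. The run of Rps2 reached the end of the stretch searched and may go on beyond it.

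The ribosomal protein genes together took a larger share of all UMIs at E15.5 than at E12.5. In the kept cells they took 12.7% of UMIs at E12.5 (95% interval 12.70 to 12.73) against 20.5% at E15.5 (20.51 to 20.53), a difference of 7.81 percentage points, or 1.61-fold. The shift was spread over the cells: the share of the middle 50% of cells ran from 10.7% to 14.3% at E12.5 and from 17.2% to 23.8% at E15.5, and 98.0% of E12.5 cells lay under the E15.5 median of 20.2%. Rps3a1 and Fau, which encode ribosomal proteins under other symbols, added 0.379% at E12.5 against 0.596% at E15.5. The 5 rows for ribosomal pseudogenes added 0.0054% and 0.0079%. Many ribosomal protein genes have processed copies elsewhere in the genome, and how reads shared with such copies were counted is not given in the sources used here, so single-gene levels are uncertain to that extent.

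Muscle lineage-like cells had the highest share of the named classes at both ages. In these cells, whose markers include the myogenic factors Pax7, Msc and Myog, ribosomal protein genes took 18.2% of UMIs at E12.5 against 26.5% at E15.5, a difference of 8.33 points. In connective tissue-like cells the share was 12.0% and 19.4%, a difference of 7.39 points. In chondrocyte-like cells, the cartilage lineage, it was 13.3% and 18.3%, and in endothelial-like cells, which line vessels, 12.46% and 19.4%. The endothelial-like class of E15.5 included a shallow cluster of 29 cells (median 1402 UMIs per cell) with 22.7%, and its other cluster held 19.3%. Every one of these classes was thus higher at E15.5, and the share of the muscle class at E12.5 lay close to that of the chondrocyte class at E15.5.

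The small classes were less uniform. Immune-like cells held 14.8% at E12.5 (25 cells) against 16.7% at E15.5 (61 cells), a difference of 1.88 points, and 56% of the E12.5 cells lay under the E15.5 median. The E15.5 class joined a cluster led by the macrophage genes C1qb, Pf4 and C1qc, with 15.6% (42 cells), and one led by Lyz2, Cd52 and Plac8, with 19.8% (19 cells). The E12.5 class was 1 cluster led by S100a9, Apoe and Ctss. A shallow E15.5 cluster led by S100a9 and S100a8 (24 cells, 22.6%) had no class name and was not part of the comparison. Epithelial-like cells held 14.0% (35 cells) and 25.8% (22 cells). Their E12.5 cluster had the neural crest genes Ednrb, Sox10 and Dct beside Krt5, Krt14 and Krt15 among its leading genes, while that of E15.5 was led by the keratinocyte genes Krtdap and Krt1. Erythroid-like cells held 8.21% (46 cells) and 18.4% (48 cells), while haemoglobin took 47.2% of their UMIs at E12.5 against 12.8% at E15.5. The E15.5 erythroid-like cluster also had the tendon genes Tnmd and Scx among its leading genes. The immune-like, epithelial-like and erythroid-like cells compared were thus of unlike make-up, and the part of this in the differences was not tested. Cells without a class name held 12.2% (935 cells) and 19.2% (716 cells). Of the classes named only at E15.5, mast-like cells held 24.4%, tenocyte-like cells 22.5%, mural-like cells 19.2% and Schwann-like cells 16.6%.

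**Figure D1:**
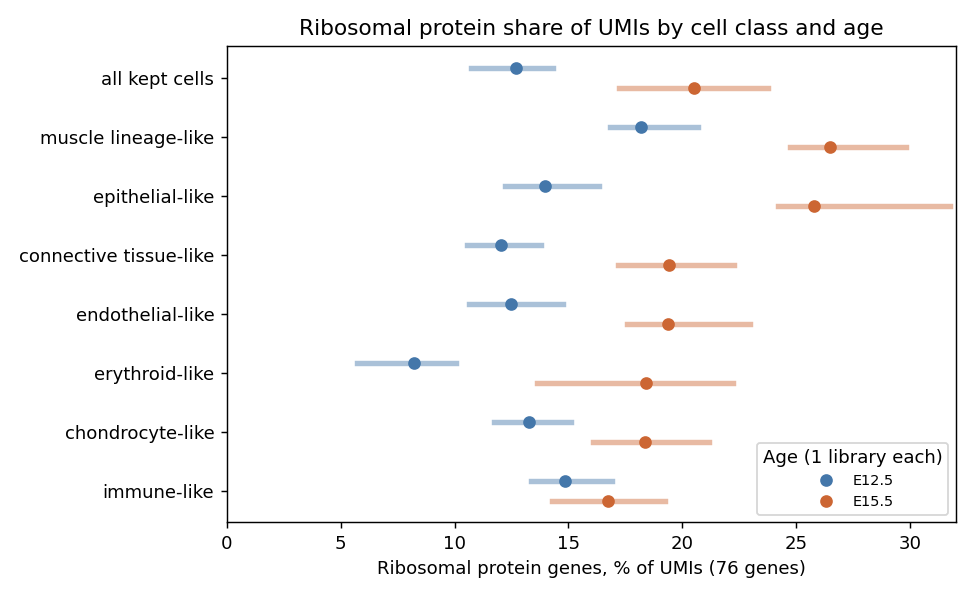
Share of all UMIs taken by the 76 ribosomal protein genes (x axis, percent) in each cell class (y axis) at E12.5 (blue) and E15.5 (orange), 1 library each. Points are the share of the pooled UMIs of the class and bars span the middle 50% of its cells; the bars of the 2 ages do not overlap in muscle lineage-like cells (18.2% and 26.5%) and do overlap in immune-like cells (14.8% and 16.7%).

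Within the muscle lineage the share differed by stage. At E12.5 the cluster led by Msc and Pax7, genes of muscle progenitors, held 18.4%, and the cluster led by Myog and Mymx, genes of differentiating and fusing myoblasts, held 18.5%. The cluster led by the fibre genes Myh3 and Mylpf held 16.4%. At E15.5 the progenitor clusters held 26.9% and 25.3%, and the cluster led by Mylpf, Myl1 and Acta1 held 28.3%. The fibre gene cluster was therefore the lowest of the 3 muscle clusters at E12.5 and the highest of the 3 at E15.5, from 50 and 89 cells. It was also the deepest of the 3 at E12.5, with a median of 4774.5 UMIs per cell against 3646.5 and 3755, and the shallowest at E15.5, with 12033 against 12261 and 17478.5, and the part of depth in this order was not tested.

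Clusters led by genes of the cell cycle lay low within their classes. Among connective tissue-like clusters of E12.5, those led by histone genes (Hist1h1b) and by Cenpf and Cdc20 held 11.55% and 10.9%, and the other connective tissue-like clusters, apart from one led by Calb2 and Lum with Hist1h1b at 11.1%, held 11.8% to 12.9%. At E15.5 the cluster led by Nusap1, Hmmr, Esco2 and Cenpf held 17.3%, against 18.1% to 22.2% in the other connective tissue-like clusters. In chondrocyte-like cells of E15.5 the cluster led by Col9a3 and Nusap1 held 16.3%, against 18.9% and 20.1% in the others. These cycling clusters were also the deepest of the connective tissue-like class at E15.5 (median 15028 UMIs per cell) and among the deeper ones at E12.5 (2997 and 2915.5), and the part of depth in their lower share was not tested. Over all clusters the share ran from 8.21% to 18.5% at E12.5 (24 clusters) and from 2.48% to 28.3% at E15.5 (27 clusters). The lowest was an unnamed cluster of 67 cells led by Gm26917 with 6.43% mitochondrial UMIs, and an unnamed shallow cluster of 226 cells led by Car3, Car2 and Hemgn held 26.3% at a median of 1314.5 UMIs per cell.

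The share was also higher at E15.5 among kept cells within the same range of depth. In kept cells with 4000 to 8000 UMIs the share was 12.9% at E12.5 (1113 cells) against 20.04% at E15.5 (1066 cells). Muscle lineage-like cells of that depth held 17.6% (224 cells) and 28.1% (26 cells), a difference of 10.6 points, and those with 8000 to 16000 UMIs held 16.2% (23 cells) and 28.3% (211 cells). Connective tissue-like cells with 4000 to 8000 UMIs held 11.2% (686 cells) and 20.5% (383 cells), a difference of 9.32 points. In both classes the difference was thus larger among cells of 4000 to 8000 UMIs than over all depths. Within that range the E15.5 cells were still the deeper ones, with a median of 6590 UMIs against 4706 over all kept cells, 6816.5 against 5169 in muscle and 6812 against 4584.5 in connective tissue.

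Within 1 library, deeper muscle lineage-like cells held a smaller share over most of the range. In muscle lineage-like cells of E12.5 the median share was 19.4% at 2000 to 4000 UMIs, 17.8% at 4000 to 8000 and 16.2% at 8000 to 16000. At E15.5 it was 30.4% at 4000 to 8000, 28.2% at 8000 to 16000 and 25.3% at 16000 to 32000. Across cells, Spearman's rank correlation of share with UMIs was -0.41 (605 cells) and -0.48 (398 cells) for muscle, and -0.14 (8162 cells) and -0.26 (1615 cells) for connective tissue, given as a description of cells that share a library and in which the UMI total is the denominator of the share. Over all kept cells the correlation was -0.04 and -0.00, and over all deposited barcodes it was 0.01 and 0.28. The order did not hold in every bin: connective tissue-like cells of E12.5 held 11.2% at 500 to 1000 UMIs (265 cells) against 12.56% at 1000 to 2000, and chondrocyte-like cells of E15.5 held 17.8% at 2000 to 4000 (35 cells) against 19.3% at 4000 to 8000.

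**Figure D2:**
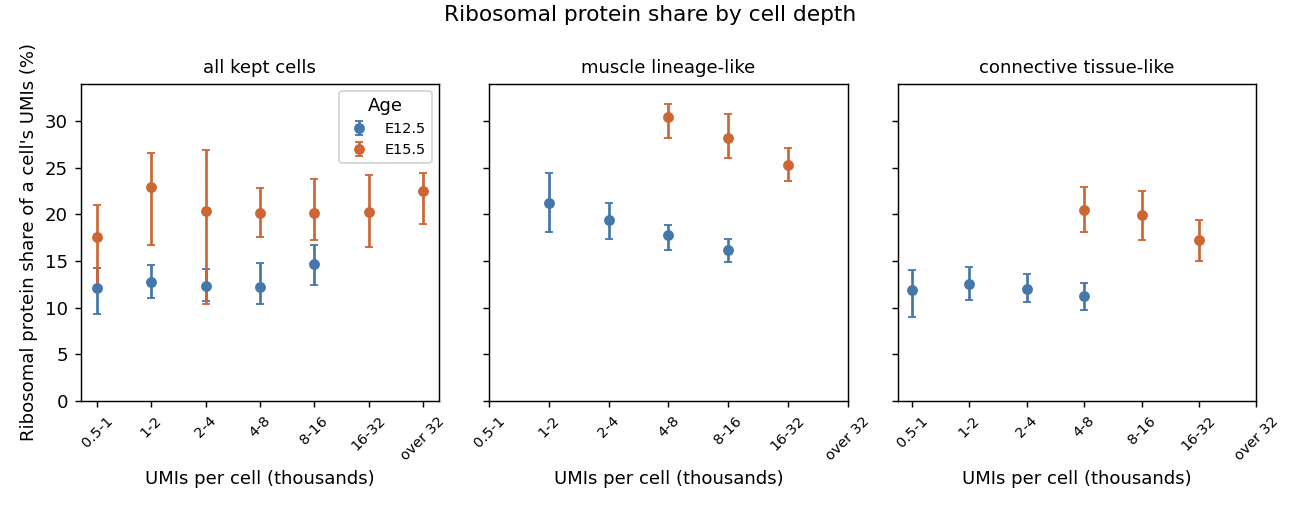
Ribosomal protein share of a cell's UMIs (y axis, percent) in bins of UMIs per cell (x axis, bins from 500 UMIs upward, each doubling the last) for all kept cells, muscle lineage-like cells and connective tissue-like cells. Points are medians over cells and bars span the middle 50% of cells, for bins with at least 20 cells; in the 4000 to 8000 bin the muscle medians are 17.8% (E12.5, blue) and 30.4% (E15.5, orange).

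Before filtering, some shallow barcodes of E15.5 were an exception. Among all deposited barcodes with 2000 to 4000 UMIs the share was 12.48% at E12.5 (6231 barcodes) against 11.8% at E15.5 (302 barcodes), the opposite order, and at 1000 to 2000 UMIs it was 12.7% and 12.9%. At 500 to 1000 UMIs it was 10.4% (933 barcodes) and 14.7% (1054 barcodes), again higher at E15.5. In the 2 bins from 2000 and from 1000 UMIs the E15.5 barcodes held 9.89% and 16.3% mitochondrial UMIs, against 3.06% and 3.36% at E12.5. The mitochondrial share was also higher at E15.5 in the bin of 500 to 1000 UMIs, with 11.9% against 5.21%. Haemoglobin took 8.72% of the UMIs of the E15.5 barcodes with 2000 to 4000. In the kept cells of 2000 to 4000 UMIs the share was 12.6% (5790 cells) and 19.7% (143 cells). Filtering also changed the bin of 4000 to 8000 UMIs. Its deposited barcodes held 12.4% at E12.5 (1884 barcodes) and 17.2% at E15.5 (1297 barcodes). This was a difference of 4.78 points against 7.19 in kept cells, and haemoglobin took 11.5% of the UMIs of these E15.5 barcodes.

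Nearly every ribosomal protein gene shared in the difference. Levels are given as CPM, the UMIs of a gene per 1000000 UMIs of the pooled cells, and each UMI is counted from the 3′ end of 1 molecule, so that levels of different genes are not scaled by length. All 76 genes had at least 100 UMIs over both ages in each class compared. Over all kept cells the median log2 ratio (E15.5 over E12.5) was 0.72, 75 of 76 genes lay above 0, and 59 reached a log2 ratio of 0.5, a size reached by 19.5% of the 13683 genes with at least 100 UMIs. No member reached -0.5, which 39.5% of all genes did. In muscle lineage-like cells the median was 0.57 and 51 of 76 members reached 0.5, against 13.1% of all genes, with 37.8% of all genes at or under -0.5 and no member there. In connective tissue-like cells the median was 0.74 and 58 of 76 reached 0.5, against 18.2% of all genes upward and 42.8% downward.

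A CPM ratio is relative to all other RNA, and the median gene lay below 0: at -0.29 over all kept cells, -0.31 for muscle and -0.35 for connective tissue. Relative to the median gene, 74, 71 and 75 of the 76 members reached 0.5. The share of all genes that reached this shifted limit was not counted, so these counts have no background. As plain CPM ratios in the other classes, 34 of 76 members reached 0.5 in chondrocyte-like cells (16.9% of all genes) and 57 in endothelial-like cells (17.9%). In epithelial-like cells 69 did (45.6%), in erythroid-like cells 73 (77.9%) and in immune-like cells 6 (31%). The member median was 0.46, 0.66, 0.89, 1.19 and 0.19 in these classes, and the median of all genes was -0.23, -0.17, 0.39, 1.20 and 0.15. Relative to that median gene, 59, 66, 38, 7 and 1 of the 76 members reached 0.5. In erythroid-like and immune-like cells the ribosomal protein genes therefore lay at the level of the median gene. In muscle, connective tissue, chondrocyte-like and endothelial-like cells they lay 0.69 to 1.09 above it. Erythroid-like cells had 140349 UMIs at E12.5 against 713531 at E15.5, and immune-like cells 112487 against 853411. Genes could thus pass the minimum mostly through E15.5. Haemoglobin also took 47.2% and 12.8% of erythroid-like UMIs. The part of both in the medians of these classes was not tested.

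The order of the genes was much the same at both ages. Across the 76 members, Pearson's r of log2 CPM between the ages was 0.91 over all kept cells, 0.93 in muscle and 0.91 in connective tissue, as a description across genes measured in the same libraries. The gene with the most UMIs was Rps29, which encodes a small zinc-binding protein of the small subunit's head, with 5389 CPM at E12.5 against 7366 CPM at E15.5 over all kept cells. Other members with many UMIs at E12.5 were Rpl6 (3866 CPM), Rps28 (3211) and Rps27a (2987), whose product is made as a fusion with ubiquitin, and at E15.5 Rpl41 (5336), which encodes a very short peptide, Rpl6 (4798) and Rpl13 (4696). Rpl10, whose product is among the last to join the large subunit, was the lowest at E12.5 with 641 CPM, and Rpl4 the lowest at E15.5 with 954 CPM. The members thus spanned less than an order of magnitude at either age.

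**Figure D3:**
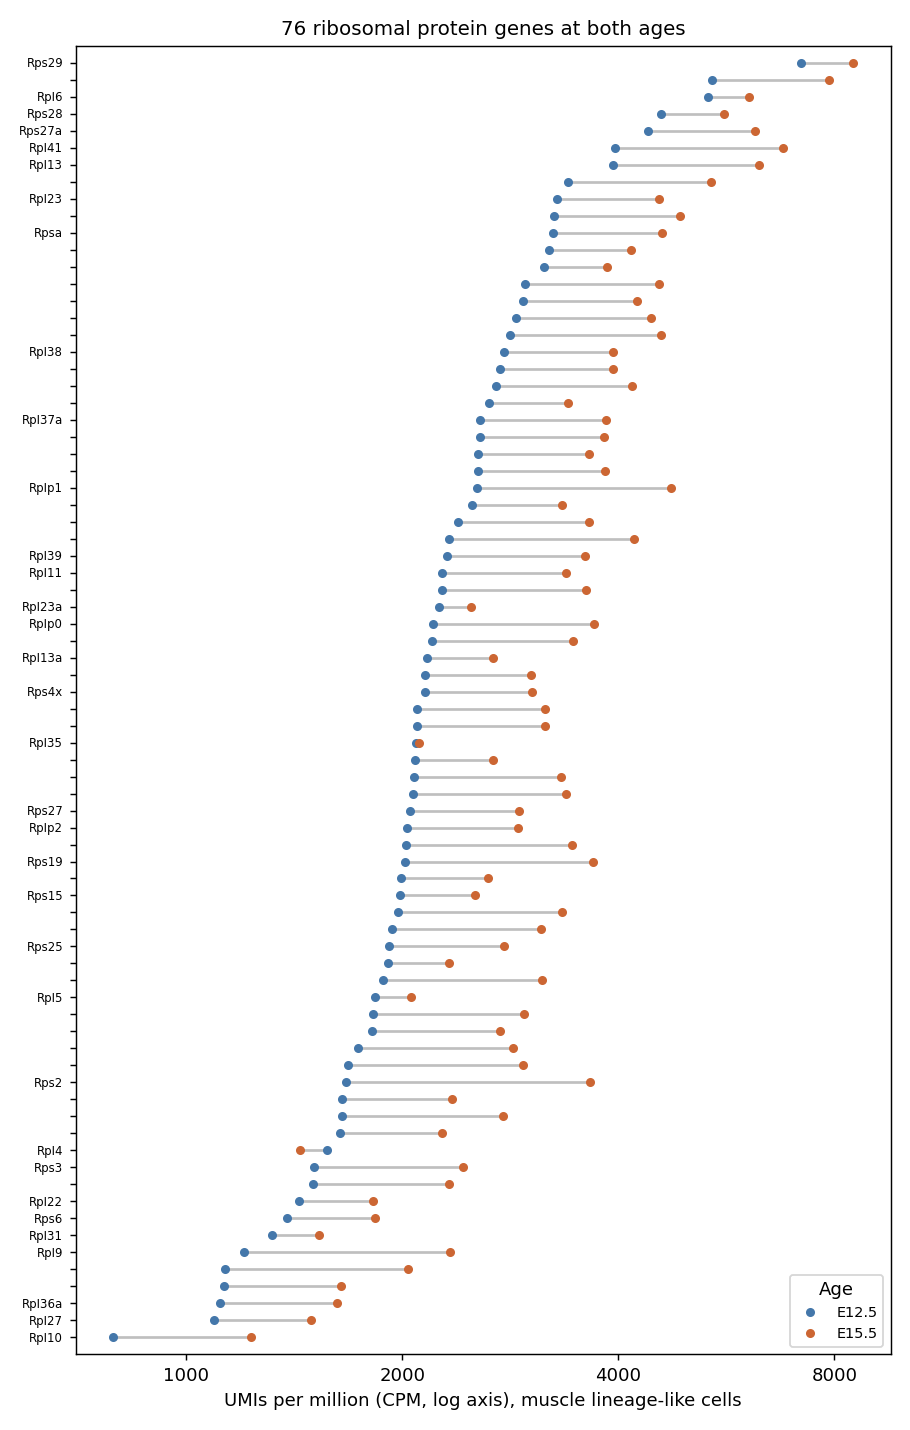
Level of each of the 76 ribosomal protein genes in muscle lineage-like cells (x axis, CPM on a log axis; y axis, genes in the order of their E12.5 level, with names for members described in the text) at E12.5 (blue) and E15.5 (orange), 1 library each. For 75 genes the E15.5 point lies to the right, by the most for Rps2 (1668 to 3656 CPM), and for Rpl4 it lies to the left (1570 to 1442 CPM).

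The 2 subunits changed by similar amounts. UMIs of large subunit genes were 1.22 times those of small subunit genes at E12.5 against 1.20 times at E15.5, a log2 difference of -0.03. In muscle lineage-like cells the median log2 ratio was 0.56 over the 46 large subunit genes and 0.59 over the 30 small subunit genes, and in connective tissue-like cells it was 0.69 and 0.76. The spread was wider in the large subunit: from -0.12 to 0.95 in muscle, against 0.24 to 1.13 in the small subunit.

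A member was said to depart from the family if its log2 ratio differed from the median of the members by at least 0.5 and its counting interval left that median out. Over all kept cells 4 members departed, Rps2 and Rplp1 upward and Rpl4 and Rpl35 downward. In muscle lineage-like cells 3 did (Rps2 upward, Rpl4 and Rpl35 downward), and in connective tissue-like cells 5 did (Rps2 and Rplp1 upward, Rpl4, Rpl35 and Rpl5 downward). A limit of 0.25 gave 20, 17 and 22 departing members, and no member departed by 1 in any of the 3.

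Among proteins of the large subunit's core and exit tunnel, Rpl4 stood lowest. Rpl4 (ENSMUSG00000032399, chr9:64173375-64178666, plus strand, GRCm38) encodes a protein with a loop that reaches into the wall of the peptide exit tunnel. In muscle lineage-like cells it had 1570 CPM at E12.5 (1521 to 1620) against 1442 CPM at E15.5 (1412 to 1472), which is a log2 ratio of -0.12 (-0.18 to -0.07). In connective tissue-like cells it had 919 CPM and 832 CPM, a log2 ratio of -0.14 (-0.17 to -0.11). It was the only member below 0 over all kept cells (-0.06), in muscle and in connective tissue, although relative to the median gene it lay above 0 in all 3, by 0.23, 0.19 and 0.20. Rpl4 had the lowest ratio of all members in 6 of the 7 classes compared, the exception being erythroid-like cells, and the classes share the same 2 libraries. Its share of the family's UMIs went from 0.864% to 0.544% in muscle and from 0.764% to 0.428% in connective tissue.

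Rpl35 (ENSMUSG00000062997, chr2:39001580-39005624, minus strand), whose product lies by the mouth of the exit tunnel, was next. It had 2092 CPM at E12.5 against 2110 CPM at E15.5 in muscle, a log2 ratio of 0.01 (-0.03 to 0.06), and 1294 and 1439 CPM in connective tissue, a log2 ratio of 0.15 (0.13 to 0.18). Rpl35 was thus nearly level in muscle while the family's median gene was 0.57 higher, and it was among the 3 members with the lowest ratios in 6 of 7 classes. The sign of its small ratio in muscle changed with the processing. It was -0.05 with no gene or mitochondrial limit and -0.02 with every cell given equal weight. In cells of 2000 to 8000 UMIs it was -0.16. Rpl31 and Rpl23a, whose products also surround the tunnel's mouth, had log2 ratios of 0.22 and 0.15 in muscle and 0.28 and 0.31 in connective tissue, and did not reach the limit for departure. Rpl39, a small protein inside the tunnel, had log2 ratios of 0.64 and 1.06, above the family median in both classes, though under the upper quartile of the members in muscle (0.68). In connective tissue the genes of tunnel proteins therefore lay toward both ends of the range.

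Rpl5 and Rpl11 encode the pair of proteins that bind 5S rRNA and, outside the ribosome, the p53 regulator Mdm2. Rpl5 had 1834 CPM at E12.5 against 2059 CPM at E15.5 in muscle, a log2 ratio of 0.17 (0.12 to 0.22). In muscle cells of 2000 to 8000 UMIs its log2 ratio was 0.08 (-0.08 to 0.23), with an interval that held 0. In connective tissue it had 1164 and 1353 CPM, a log2 ratio of 0.22 (0.19 to 0.24), and departed there. Rpl11 had log2 ratios of 0.57 (0.53 to 0.62) and 0.64 (0.62 to 0.66), close to the family median in muscle and under it in connective tissue. Over all depths the counting intervals of the 2 partners did not overlap in either class.

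The stalk of the large subunit, which recruits the translation factors, is formed by Rplp0, Rplp1 and Rplp2. Rplp1 had 1378 CPM at E12.5 against 3411 CPM at E15.5 in connective tissue-like cells, a log2 ratio of 1.31 (1.29 to 1.33), and 2541 and 4740 CPM in muscle, a log2 ratio of 0.90 (0.86 to 0.94). Rplp0 had log2 ratios of 1.03 in connective tissue and 0.75 in muscle. Rplp2 had 0.60 and 0.51, under the family median in both. Rplp1 moved from place 26 to place 10 of the 76 members by CPM in muscle and from place 43 to place 13 in connective tissue.

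In the small subunit, Rps2 had the highest ratio. Rps2 (ENSMUSG00000044533, chr17:24718116-24721929, plus strand) encodes a protein at the channel through which mRNA enters. It had 1668 CPM at E12.5 (1617 to 1719) against 3656 CPM at E15.5 (3609 to 3705) in muscle, a log2 ratio of 1.13 (1.08 to 1.18). In connective tissue it had 921 and 2309 CPM, a log2 ratio of 1.33 (1.30 to 1.35). Rps3, which also lines the entry channel, had log2 ratios of 0.69 and 0.73, and Rpsa, also known as the laminin receptor precursor, had 0.51 and 0.49. Rps19, a gene affected in Diamond-Blackfan anaemia, had 0.87 and 0.95, and Rps6, the substrate of S6 kinase, had 0.41 and 0.44. Rpl38, known from mouse skeletal patterning, lay near the median with 0.50 and 0.76.

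**Figure D4:**
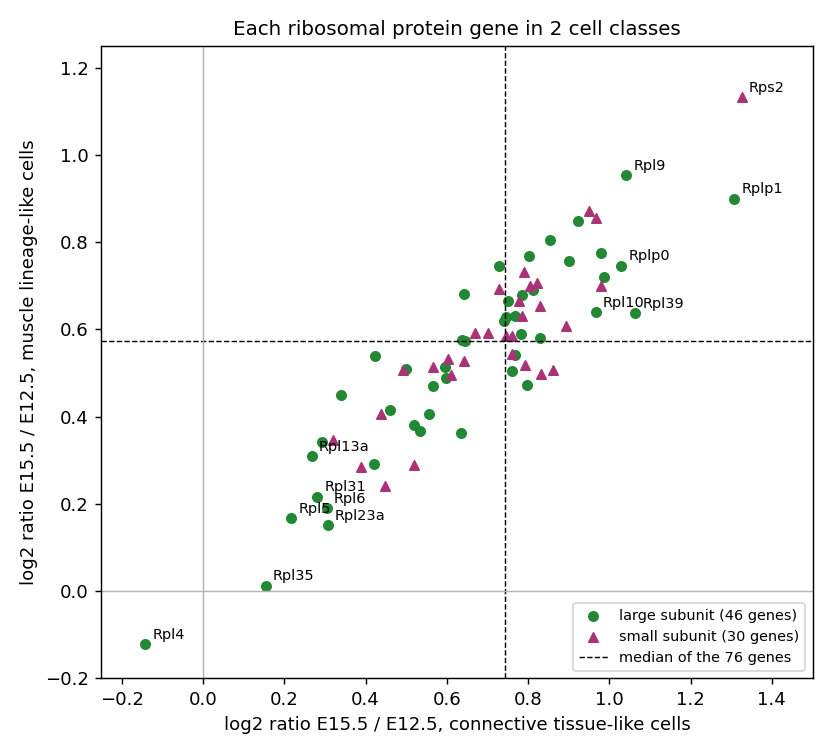
Log2 ratio of E15.5 over E12.5 CPM for each of the 76 genes in connective tissue-like cells (x axis) and muscle lineage-like cells (y axis), with large subunit genes as circles and small subunit genes as triangles; dashed lines are the medians of the 76 genes (0.74 and 0.57). Rps2 lies at the upper right (1.33 and 1.13) and Rpl4 at the lower left (-0.14 and -0.12), the latter above 0 when scaled to the median gene.

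The departures differed in size between ranges of depth. In cells with 4000 to 8000 UMIs, Rpl4 had 1654 CPM at E12.5 against 1345 CPM at E15.5 in muscle and 941 and 813 CPM in connective tissue, and it lay 1.03 and 1.13 log2 units under the median of the members. Rpl35 lay 0.82 under the median in both classes. Rps2 had 1707 and 3523 CPM in muscle and 975 and 2228 CPM in connective tissue, so it was still higher at E15.5, but only 0.32 and 0.27 above the median of the members. Rplp1 lay 0.08 and 0.28 above it. In this bin the low departures were thus larger and the high ones fell short of the limit. Among muscle lineage-like cells with 8000 to 16000 UMIs, of which E12.5 had 23, Rps2 lay 0.65 and Rplp1 0.13 above the median, and Rpl4 1.04 and Rpl35 0.59 under it. Over all kept cells with 1000 to 2000 UMIs, Rps2 lay 0.72 and Rplp1 0.74 above the median, past the limit. Rpl4 lay 0.53 and Rpl35 0.60 under it there. Over all kept cells with 4000 to 8000 UMIs, Rps2 and Rplp1 each lay 0.23 above the median. The part of depth in these differences was not tested.

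Over cells with 2000 to 8000 UMIs, 8 members departed in all kept cells and in muscle, and 10 in connective tissue. The gene above the family in all 3 was Rpl9, a large subunit protein (ENSMUSG00000047215, chr5:65388364-65391444, minus strand), and those below included Rpl4, Rpl35, Rpl5, Rpl31, Rpl23a and Rps15, with Rpl13a and Rpl27 added in connective tissue. Of the members that departed at all depths, 2, 2 and 3 were among them. Rpl9 had 1107 CPM at E12.5 against 3022 CPM at E15.5 in muscle cells of 4000 to 8000 UMIs, and 774 and 2202 CPM in connective tissue cells of that depth. Over all depths it had 1202 and 2329 CPM in muscle, a log2 ratio of 0.95, and it was among the 5 highest members in 7 of 7 classes. Its level was lower in deeper cells of E15.5: in connective tissue it was 2202 CPM at 4000 to 8000 UMIs, 1850 at 8000 to 16000 and 1385 at 16000 to 32000. In the 3 depth bins of these classes with at least 20 cells at both ages, Rpl9 lay above the median of the members and Rpl4 below it.

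The remaining classes give the same genes a similar place. Relative to the member median of each class, Rpl4 was lower by 0.80 in chondrocyte-like, 0.91 in endothelial-like, 0.67 in immune-like and 0.73 in epithelial-like cells. Rpl9 was higher by 0.54, 0.49, 0.48 and 0.52 in the same classes. Rps2 was among the 5 highest members in 6 of 7 classes and Rplp1 in 3 of 7, and Rplp1 lay 0.09 under the median in immune-like cells. In erythroid-like cells Rpl4 was 0.23 and Rps2 0.27 under the median, and Rpl9 was 0.75 above it.

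Within each library, every ribosomal protein gene had a higher level in muscle lineage-like than in connective tissue-like cells. The median log2 ratio of muscle over connective tissue was 0.59 at E12.5 (lowest 0.35, highest 0.90) against 0.47 at E15.5 (lowest 0.02, highest 0.79), while the median gene lay at -0.26 and -0.25. At E12.5, 59 of 76 members reached 0.5, against 10.6% of 11186 genes, and at E15.5, 35 of 76 did, against 16.9% of 10718 genes. These comparisons are within 1 library each, where the muscle cells were the deeper ones (median 3742 UMIs in muscle and 2275.5 in connective tissue at E12.5, with 14272 and 10079 at E15.5).

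The members least raised in muscle at E15.5 included several of the X chromosome. Rpl10 had 1231 CPM in muscle and 1211 CPM in connective tissue at E15.5, or a log2 ratio of 0.02 (-0.01 to 0.06), against 0.35 at E12.5. Rps27 followed with 0.10, Rpl39 with 0.16, Rpl23 with 0.21, Rpl37a with 0.23 and Rps4x with 0.24. The 4 X-linked members, Rpl10, Rpl39, Rps4x and Rpl36a, held places 1, 3, 6 and 20 from the lowest at E15.5 and places 1, 39, 37 and 46 at E12.5, and they were singled out after their values were seen. At the other end Rpl4 had 1442 CPM in muscle and 832 CPM in connective tissue at E15.5, a log2 ratio of 0.79, followed by Rps25 with 0.75. Rpl4, lowest of the family in its ratio between ages, was thus the member most raised in muscle over connective tissue at E15.5.

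Cells read as male (a Y-linked UMI and no Xist) and as female (Xist and no Y-linked UMI) had similar shares. Male cells held 13.0% at E12.5 against 20.6% at E15.5, and female cells 12.4% and 20.3%. In the muscle class these were 18.4% and 27.1% in male cells and 17.7% and 26.2% in female cells. The difference between ages over all kept cells was 7.52 points in male and 7.93 points in female cells.

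Other lists of translation genes were measured beside the family. The 5 elongation factors, which escort tRNA and move the ribosome along the mRNA and whose mRNAs carry the TOP motif too, had a median log2 ratio of -0.00 in muscle and 0.16 in connective tissue. Only Eef1d, an exchange factor subunit, reached 0.5, with 0.64 (272 to 424 CPM) and 0.60 (208 to 316 CPM). Of 13 further genes with a TOP start, 3 reached 0.5 and 0 reached -0.5 in muscle (median 0.38), and 4 and 2 did in connective tissue (median 0.14). Of all genes, 13.1% and 37.8% did in muscle and 18.2% and 42.8% in connective tissue. Of the 5 elongation factors, 1 and 0 did in each class. Tpt1, a growth-related protein, had 3388 CPM at E12.5 against 4991 CPM at E15.5 in muscle and 2271 and 4438 CPM in connective tissue, log2 ratios of 0.56 and 0.97. Fau, which encodes a small subunit protein, had 0.64 and 0.70, and Eif3f, a subunit of the factor that readies the small subunit, 0.60 and 0.78. Rack1, which sits on the small subunit, had 0.45 and 0.59. Hnrnpa1, a splicing regulator, had -0.40 and -1.08, and Eif4b had -0.47 and -0.67.

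Initiation factors had counts at or under those of all genes. Of 24 genes, 3 reached 0.5 and 3 reached -0.5 in muscle (median -0.01), against 13.1% and 37.8% of all genes. In connective tissue 3 and 7 did (median -0.27), against 18.2% and 42.8%. Eif6, which keeps the subunits apart, had log2 ratios of 0.83 and 0.69, Eif3i 0.69 and 0.77 and Eif5a 0.58 and 0.46. Eif1, which takes part in start codon choice, had 0.31 and 0.59. The scaffolds Eif4g1 and Eif4g2 had -1.08 and -0.76 in muscle and -0.92 and -1.01 in connective tissue, and Eif3a had -0.54 and -0.57. Eif4e, which binds the cap, had -0.25 and -0.78, Eif1ax 0.02 and -0.84 and Eif2s3x -0.36 and -1.24.

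Genes of ribosome biogenesis, which make rRNA and assemble the subunits, had medians below 0. Of 24 genes with at least 100 UMIs in muscle, 2 reached 0.5 and 6 reached -0.5 (median -0.18), and of 25 in connective tissue 2 and 13 did (median -0.54). Rrn3, which brings RNA polymerase I to the rRNA genes, had 113 CPM at E12.5 against 47.8 CPM at E15.5 in muscle, a log2 ratio of -1.24, and -0.92 in connective tissue. Bysl, Tcof1, Nop14 and Pes1 had -1.14, -0.77, -0.57 and -0.53 in muscle. In connective tissue Polr1b, Bop1 and Tcof1 had -1.17, -1.09 and -0.94, and Ncl, the most abundant of the list, went from 1548 to 919 CPM, a log2 ratio of -0.75. Nop10 and Nhp2, partners in the particle that guides pseudouridine formation, had 0.88 and 0.61 in muscle, and Nop10 and Gnl3 had 0.71 and 0.50 in connective tissue. The count at or above 0.5 was below the share of all genes in both classes (13.1% and 18.2%). The count at or under -0.5 was below the share of all genes in muscle (37.8%) and above it in connective tissue (42.8%). The list's median lay above that of all genes in muscle (-0.31) and under it in connective tissue (-0.35).

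mTOR pathway genes and regulators of TOP mRNAs had medians of -0.48 in muscle and -0.50 in connective tissue. Of 13 genes, 3 reached 0.5 and 6 reached -0.5 in muscle, against 13.1% and 37.8% of all genes, and 4 and 7 did in connective tissue, against 18.2% and 42.8%. The medians lay a little under those of all genes (-0.31 and -0.35). Eif4ebp1, an inhibitor of cap binding that mTOR switches off, had 87.7 and 166 CPM in muscle and 28.0 and 85.0 CPM in connective tissue, log2 ratios of 0.92 and 1.60. Rheb, the activator of mTOR, had 0.64 and 0.55. Rptor, the subunit that presents substrates, had -1.06 and -1.29, and Mtor itself -0.74 and -0.82. Deptor, an mTOR inhibitor, had -1.26 in muscle, where it went from 36.8 to 15.3 CPM, and 0.87 in connective tissue, where it had 2.70 and 4.92 CPM. Of the 4 Myc family genes, Mycn went from 30.7 to 11.9 CPM in muscle and from 13.5 to 1.36 CPM in connective tissue, log2 ratios of -1.37 and -3.31, and Mycl had -0.88 and -2.07. Myc itself had -0.36 (-0.75 to 0.05) and 0.28 (0.10 to 0.45), and its partner Max had -0.23 and -0.07, so only Mycn and Mycl reached -0.5 in either class.

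Paralogues outside the symbol rule and the mitochondrial ribosome give a further comparison. Of the paralogues, Rpl22l1, the close relative of Rpl22, had 816 and 1258 CPM in muscle and 590 and 1180 CPM in connective tissue, log2 ratios of 0.63 and 1.00, while Rpl22 itself had 0.34 and 0.29. Rps27l had 0.62 and 0.36 and Rpl36al 0.55 and 0.76. Rps3a1, which encodes a ribosomal protein under another symbol and was counted in this list, had 0.48 and 0.55. Rpl7l1 had 0.24 and -0.38, the latter lower at E15.5. Rpl39l was at 0 UMIs in muscle at E15.5 and had 140 and 247 UMIs in connective tissue. Of 78 mitochondrial ribosomal protein genes, whose products build the separate ribosome inside mitochondria, 25 reached 0.5 and 0 reached -0.5 in muscle (median 0.34). In connective tissue 14 and 10 did (median 0.09). Of all genes, 13.1% and 37.8% did in muscle and 18.2% and 42.8% in connective tissue. The upward count in connective tissue was thus near the share of all genes. Mrps28 had 1.24 and 1.48 and Mrps26 1.10 and 0.94. The median of the cytosolic ribosomal protein genes, 0.57 and 0.74, was higher than that of each of these lists. The paralogue list came closest, with 0.55 from 5 genes in muscle and 0.66 from 6 genes in connective tissue.

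**Figure D5:**
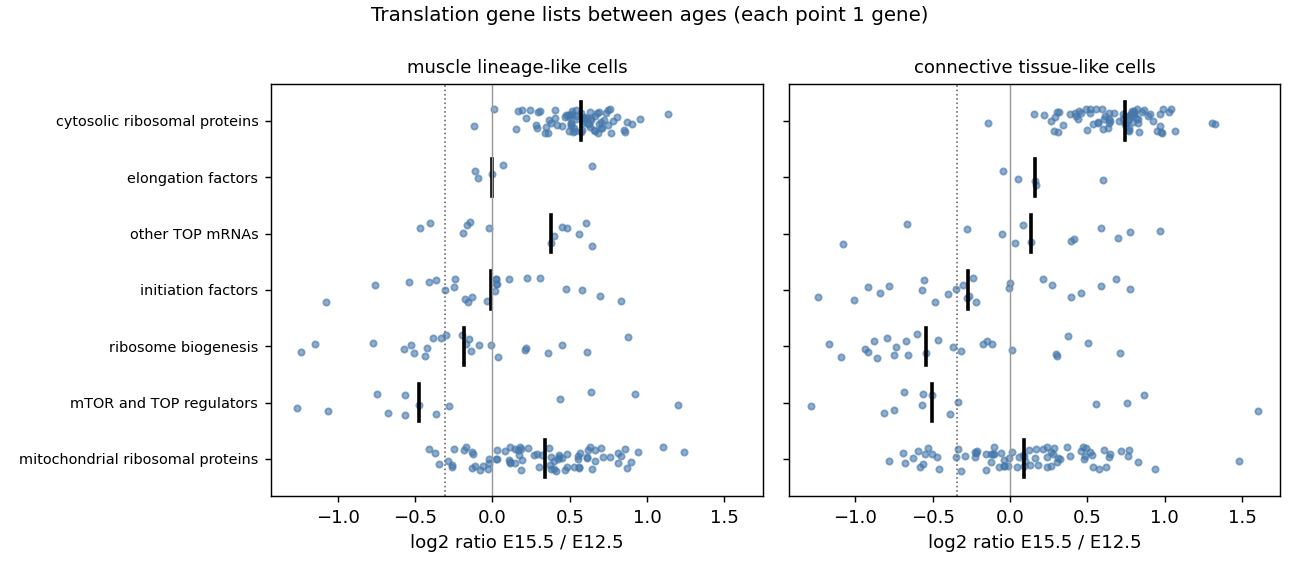
Log2 ratio of E15.5 over E12.5 CPM (x axis) of each gene (points) in 7 lists of translation genes (y axis), in muscle lineage-like cells (left) and connective tissue-like cells (right). Black bars are list medians and dotted lines the median of all genes (-0.31 and -0.35); the cytosolic ribosomal proteins have medians of 0.57 and 0.74, ribosome biogenesis genes -0.18 and -0.54.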

How the data were processed

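Single-cell RNA was measured in 2 droplet libraries, 1 per age. Per the file headers and the labels, the deposited matrices hold UMI counts per gene and cell barcode, made by the authors with Cell Ranger 4.0.0 on build mm10, with Seurat 4.3.0 also named, per the submitters' processing notes. The annotation release, the handling of reads with several hits and the settings that tell cells from empty droplets are not given in the sources used here.

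Cells were kept with at least 500 genes and under 10% mitochondrial UMIs, which left out 604 and 66 barcodes at E12.5 and 1376 and 298 at E15.5. Doublets were scored by the share of artificial doublets among each cell's nearest neighbours, and the top scores, 0.8% per 1000 deposited cells, were removed (1270 and 190 cells). Each library was clustered alone on 2000 variable genes without the ribosomal protein and other translation genes (30 components, 15 neighbours, Leiden resolution 1.0, seed 0). A cluster took a class name from at least 3 markers at least 2-fold higher and detected in at least 10% of its cells, with 1 or more among its top 10 genes. Remaining clusters could be named connective tissue against the other classes, and clusters far shallower than their library were not named by this last step. This naming was set with the clusters of an earlier analysis known, and the rebuilt classes may differ from the study's own.

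UMIs were pooled per class and age. Shares have Clopper-Pearson 95% intervals, CPM values exact Poisson intervals and log2 ratios exact conditional intervals. PCR copies are merged by UMI, so the intervals cover the counting of molecules only. No test between ages was made, since there was 1 library per age. The ratio script was tested on simulated data. Named genes were the departing members, the 5 with the most UMIs at each age, members of opposite sign and up to 5 genes per list and direction past 0.5; other members are named by their role in the ribosome, and a few genes that the rule takes are not reported here. The members, lists and limits were chosen with earlier results of these data known. Gene positions come from GENCODE vM21 (76 of 76 matched), and sequences from RefSeq GRCm38.p6, taking the first entry of a gene. Alternatives changed the cell filter, doublet removal, clustering, denominator, cell weights, depth, sex, scaling and limits. The scripts ran under Python 3.11.15, with numpy 2.4.6 for components, scikit-learn 1.9.0 for nearest neighbours and scipy 1.17.1 for intervals. Clusters were made with leidenalg 0.10.2 on igraph 0.11.9, tables with pandas 2.3.3 and numpy, and plots with matplotlib 3.10.9.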

Additional observations from a re-analysis of the deposited data

Results flagged for a closer look

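A few members were higher at E15.5 in both muscle lineage-like and connective tissue-like cells and lower in another class, with counting intervals that left 0 out on each side. In each case the difference between classes was not tested, and the classes share the same 2 libraries. Rpl31, whose product lies near the exit tunnel, had a log2 ratio of -0.094 (-0.16 to -0.03) in chondrocyte-like cells, from 3146 UMIs at E12.5 against 4461 at E15.5, while it was higher at E15.5 in muscle lineage-like (0.22) and connective tissue-like cells (0.28). In immune-like cells 4 members were lower at E15.5 that were higher in muscle and connective tissue: Rpsa with -0.18 (-0.33 to -0.02), Rpl23a with -0.34 (-0.56 to -0.11), Rpl24 with -0.21 (-0.39 to -0.02) and Rpl36a with -0.33 (-0.63 to -0.02). The immune-like class held 25 cells at E12.5 against 61 at E15.5, and Rpl36a rested on 107 UMIs at E12.5. In that class 15 of the 76 members lay below 0, and the member median (0.19) was near that of all genes (0.15). The share of all genes lower at E15.5 in immune-like cells was not counted, so the count of such members has no background. Outside that definition, Rpl35 was lower at E15.5 in chondrocyte-like (-0.19, -0.25 to -0.13) and immune-like cells (-0.41, -0.63 to -0.19) and higher in connective tissue-like cells (0.15, 0.13 to 0.18), with an interval in muscle that held 0. Rpl4 was lower in muscle and connective tissue and higher in erythroid-like cells (0.96, 0.57 to 1.37), where the median of all genes was 1.20.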

How the results depend on the processing

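The share of ribosomal protein UMIs was higher at E15.5 under every alternative run for all kept cells, the muscle class and the connective tissue class; the size of the difference moved beyond counting error as follows, in percentage points. Over all kept cells (7.81) it was 6.95 over all deposited barcodes, 7.83 with at least 1000 genes, 7.56 with a mitochondrial limit of 5%, 7.85 with no doublets removed, 8.21 without mitochondrial and haemoglobin UMIs in the denominator, 7.77 with every cell given equal weight, 7.37 in cells with 2000 to 8000 UMIs, 7.52 in male and 7.93 in female cells, 8.02 with Rps3a1 and Fau in place of a planned wider set, and 7.83 without clusters of low depth, the last 2 chosen after seeing the data. In the muscle class (8.33) it was, in the order given, 7.19 over all deposited barcodes, 8.06 with the mitochondrial limit of 5%, 8.65 with no doublets removed, 8.82 with the other denominator, 8.48 with equal weight, 9.99 at 2000 to 8000 UMIs, 8.76 in male and 8.54 in female cells. In the connective tissue class (7.39) it was 7.24 with at least 1000 genes, 7.24 with the mitochondrial limit of 5%, 7.47 at resolution 0.5, 7.64 at resolution 2.0, 7.44 with 4000 variable genes, 7.15 with both libraries clustered together, 7.68 with the other denominator, 7.70 with equal weight, 8.68 at 2000 to 8000 UMIs, 7.31 in male and 7.56 in female cells. The number of departing members (4, 3 and 5 in all kept cells, muscle and connective tissue) was 8, 8 and 10 at 2000 to 8000 UMIs, 20, 17 and 22 with a limit of 0.25, and 0, 0 and 0 with a limit of 1. The log2 difference of large to small subunit UMIs was -0.038 in the connective tissue class. Rpl4 changed sign when scaled to the median gene (0.23, 0.19 and 0.20). Rpl35 changed sign in all kept cells at 2000 to 8000 UMIs (-0.035) and in muscle over all deposited barcodes (-0.048), with equal weight (-0.020) and at 2000 to 8000 UMIs (-0.16). The cause of these shifts was not tested. No paired analysis was possible because there was 1 library per age. The depth of the E12.5 library limits comparisons within a range of depth: only 23 muscle lineage-like and 4 connective tissue-like cells of E12.5 had 8000 to 16000 UMIs.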
